A study of Mus musculus with 56 samples.

Results

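HDAC1 was mapped by ChIP-seq across the genome of mouse bone marrow-derived macrophages (BMDMs) before and after 1 hr of IL-4, and all HDAC1 peaks were used here, whether or not STAT6 binds there. The 4 HDAC1 samples were taken by their antibody label from the 56 samples of the series. Groups of 2 samples each were compared, untreated macrophages and macrophages given IL-4 (20 ng/ml) for 1 hr. Both came from wild-type C57BL/6 mice aged 8 to 12 weeks, whose bone marrow was cultured for 6 days with L929 cell supernatant as the source of M-CSF. Each list therefore describes a whole culture, in which a change in the share of cells that bind HDAC1 and a change in binding per cell cannot be told apart. The study describes the 2 samples of a group as independent biological replicates and does not say whether they share animals.

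HDAC1 is a zinc-dependent enzyme that removes acetyl groups from histone tails, and it works as the catalytic subunit of the Sin3, NuRD, CoREST, and MiDAC corepressor complexes, often together with its close relative HDAC2. It has no DNA-binding domain of its own and is brought to DNA by transcription factors and by these complexes, and it is found at active promoters and enhancers as well as at silent ones. IL-4 acts on macrophages through its receptor and JAK kinases, which phosphorylate STAT6. STAT6 then dimerizes and binds DNA at palindromes of TTC and GAA with 4 bases between them, and the IL-4-treated macrophages take on an alternatively activated state. p300, by contrast with HDAC1, is an acetyltransferase that marks active enhancers with H3K27Ac.

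The HDAC1 lists held 30511 and 26836 peaks in the untreated samples and 23270 and 22340 peaks in the IL-4 samples. The peak score measures on a −log10 scale how significant the peak caller found a peak, so it grows with sequencing depth as well as with enrichment, and the depth of these libraries is unknown. The median score was 7.03 and 6.33 in the untreated samples and 6.26 and 5.9 in the IL-4 samples. Fewer peaks and lower scores thus went together in both IL-4 samples, and a shallower library and less HDAC1 on DNA cannot be told apart from these values. The exact two-sided permutation test of 2 against 2 samples cannot go below 0.333, which it gave for both measures. Of 7 macrophage marker genes, 5 had an HDAC1 region and 4 had one in every sample, among them *Itgam* and *Mertk*, while none of the 6 T cell, 6 neutrophil, or 5 fibroblast markers had one in every sample.

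HDAC1 peaks lay mostly away from promoters, and the distribution over the genome was nearly the same in the 4 samples. Introns held 44.1% and 44.3% of the untreated peaks and 43.6% and 43.7% of the IL-4 peaks. Intergenic DNA held 31.2% and 30.5% of the untreated peaks and 30.8% and 30.3% of the IL-4 peaks. Promoters held 18% and 18.1% of the untreated peaks and 18.7% and 19% of the IL-4 peaks, a difference of 0.843 percentage points that did not overlap between the groups (exact permutation p = 0.333, the smallest that 4 samples allow). That difference was 0.0582 percentage points with lists cut to equal length and 0.456 with scores of at least 5. The median distance of a peak from the nearest transcription start site (TSS) ranged from 9301 to 9857 bp over the 4 samples.

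Peaks that overlapped by at least 1 bp were merged into 39203 regions. A peak was present in every sample at 13447 regions, or 34.3% of them. Since the lists differ in length, overlaps are given as shares of each list. Of the regions in untreated replicate 1, 70.8% were found in untreated replicate 2, and 62.8% and 60.4% in the IL-4 samples. Of the regions in IL-4 replicate 1, 70.9% were found in IL-4 replicate 2, and 82.7% and 76.4% in the longer untreated lists. Over the regions present in every sample, the log2 scores correlated between replicates with r = 0.635 (untreated) and r = 0.571 (IL-4), and across treatments with r = 0.551 to 0.567 (13447 regions, which are not independent replicates).

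A peak appeared in both IL-4 samples and in neither untreated sample at 798 regions, and in both untreated samples and neither IL-4 sample at 2838 regions. These peaks were weak, with a median score of 5.2 at gained and 5.37 at lost regions, and 41 gained and 73 lost regions reached a score of 10. When each list was cut to its 22340 strongest peaks, 1428 regions were gained and 1421 were lost, a balance that lists of equal length bring with them.

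To compare the amount of binding, the highest score in each region was put on a log2 scale, regions without a peak in a sample were set to 1.36, the minimum over the lists, and each sample was centred on the regions present in every sample. The 27384 regions with a peak in at least 2 samples were tested with limma. No region passed a Benjamini-Hochberg adjusted p of 0.05 in either direction (0% called higher and 0% called lower), and the smallest adjusted p was 0.378. At an unadjusted p of at most 0.05, 1274 regions (4.65%) were higher and 2321 regions (8.48%) were lower after IL-4. "Higher" and "lower" are used in this sense from here on, and no such region passed the adjustment unless this is stated. Both IL-4 values lay above both untreated values at 4146 regions (15.1%) and below both at 6737 regions (24.6%). The split of 35.4% higher to lower calls depended on how missing peaks and scaling were treated, and ran from 18.9% higher without centring to 84% higher with a floor 4 times as high, with 53.7% under quantile normalization. Of the 1274 higher regions, 797 had no untreated peak. Of the 2321 lower regions, 1924 had no IL-4 peak, and 1280 turned to the opposite direction with the higher floor. After centering, a missing peak counts for more in the IL-4 than in the untreated samples (the shift in the median shared score was -0.319 on the log2 scale), so regions with no untreated peak could not turn, and the settings do not compare the stability of the directions.

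**Figure D1:**
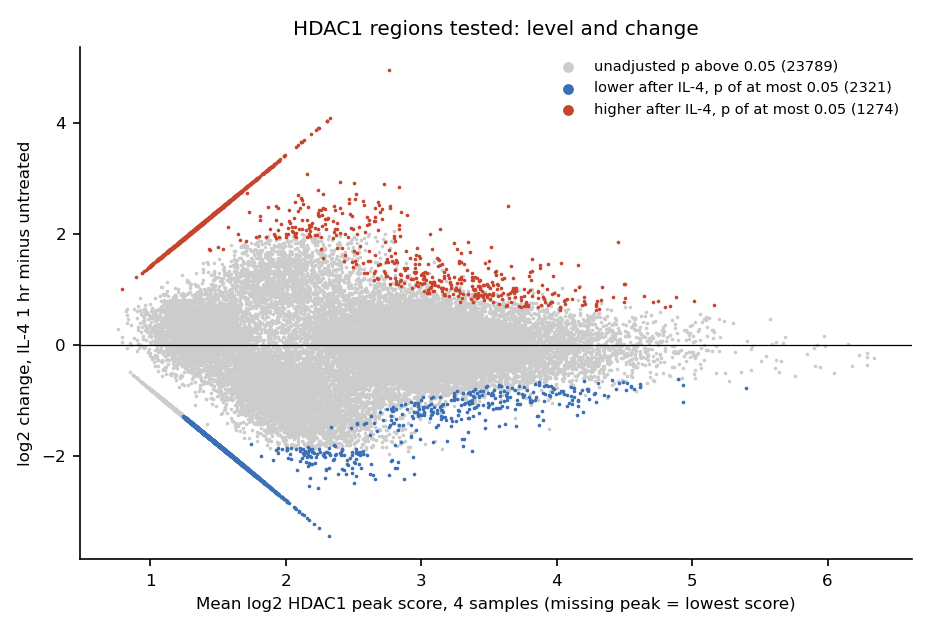
Each point is 1 of 27384 HDAC1 regions, with the mean log2 peak score of the 4 samples on the x axis and the log2 change (IL-4 1 hr minus untreated) on the y axis. The straight red and blue edges are regions with no peak in either untreated or either IL-4 sample, and the 1274 red and 2321 blue points are the regions at an unadjusted limma p of at most 0.05.

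Where a peak was present in every sample, scores could be compared without any floor. Of these 13447 regions, 568 (4.22%) were higher and 457 (3.4%) were lower at an unadjusted p of at most 0.05, and since the samples were centered on these same regions, the near balance and the median change of 0.01 on the log2 scale are set by the centering. Without centering the median change over all tested regions was -0.42, with 904 higher and 3881 lower. In the centered fit of the 13447 regions with a peak in every sample, 11 regions (0.0818%) were higher at an adjusted p of at most 0.05. In the same fit 2 regions (0.0149%) were lower. The higher ones lay near *Mroh2b*, *Aqp3*, *Vps53*, *Pde12*, *Zap70*, *N4bp1*, *Nrg1*, *Tbxas1*, *Srf*, *Rmi2*, and *Arhgap31*, and the lower ones near *Gbx2* and at the *Slc35b1* promoter. The genes are the ones with the nearest TSS in the deposited annotation, which need not be the genes that a distal region serves.

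The region near *Mroh2b* (mm10 chr15:4816786-4817526, intergenic, at -81692 bp) gave the smallest adjusted p of that fit. Its HDAC1 scores were 5.14 and 6.64 in the untreated samples and 26.4 and 26.9 in the IL-4 samples. The groups were far apart, with a log2 change of 2.51 ± 0.34 (SE) in the fit of all tested regions, where its adjusted p was 0.378 (limma). In the fit of regions with a peak in every sample its adjusted p was 2.04e-05 (limma). At the region 24585 bp from *Aqp3*, which encodes a water and glycerol channel (chr4:41073049-41073875, intergenic), the scores were 13.6 and 12 without IL-4 and 30.6 and 45.6 with IL-4. The promoter of *Srf*, the serum response factor that drives immediate early genes together with ternary complex factors (chr17:46556373-46556809, at -434 bp), had scores of 8.34 and 4.25 against 19.6 and 15.3. The region at 9246 bp from *Rmi2* (chr16:10843959-10844792), a neighbor of the cytokine signaling inhibitor *Socs1*, had scores of 6.89 and 6.88 against 22.5 and 15.9. At each of these 3 regions both IL-4 scores exceeded both untreated scores.

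By the naming rule (smallest p, both IL-4 values on one side of both untreated values, and a change of at least 1 on the log2 scale), 12 regions were named in each direction. Among the 12 higher regions, 8 had no HDAC1 peak in either untreated sample, so that no fold can be given for them. The strongest of these lay in *Sdccag8*, a centrosomal protein gene (chr1:176816828-176817209, intron, 2206 bp from the TSS, inside an LTR of the ERVK family), with scores of 33.8 and 33.7 after IL-4. The region at -46326 bp of *Dars*, the cytosolic aspartyl-tRNA synthetase gene, had IL-4 scores of 21.2 and 16.2. The region at -6879 bp of *Rnf19b*, an E3 ubiquitin ligase gene, had IL-4 scores of 15.5 and 20.6. All of these stood well above the median score of a gained region. In an intron of *St8sia1*, which encodes a ganglioside sialyltransferase, the IL-4 scores were 17.9 and 15.1. In an intron of *Ppp2r3a*, a regulatory subunit of protein phosphatase 2A, they were 17.1 and 15. At -65422 bp of *Ifngr1*, the ligand-binding chain of the interferon-gamma receptor, they were 13.4 and 23.9. *Casp6*, an executioner caspase gene, and *Tmem37* each held such a region in an intron, with scores of 12.5 and 21.6 and of 18.1 and 12.8. An intron of *Vps53*, a subunit of the endosome-to-Golgi tethering complex, was bound before IL-4, with scores of 4.58 and 2.94 against 14.5 and 15.5.

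The DNA under these peaks is shown for the 4 regions with the smallest p in the higher direction and for 2 regions of the lower direction, as 200-base windows around the center of the strongest peak. Letters come from the plus strand of the RefSeq GRCm38 (mm10) genome, and capitals mark matches to the STAT6 (TTCNNNNGAA), PU.1 (GAGGAAGT), AP-1 (TGANTCA), and C/EBP (TTGCNNAA) motifs on either strand. Matches describe the letters and are not evidence that a factor was bound.
Mroh2b window, chr15:4816946-4817145: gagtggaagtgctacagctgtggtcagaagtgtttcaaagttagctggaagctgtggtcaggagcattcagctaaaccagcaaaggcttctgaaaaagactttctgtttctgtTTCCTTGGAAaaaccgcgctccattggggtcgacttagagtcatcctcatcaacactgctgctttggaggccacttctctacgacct
Rnf19b window, chr4:129051293-129051492: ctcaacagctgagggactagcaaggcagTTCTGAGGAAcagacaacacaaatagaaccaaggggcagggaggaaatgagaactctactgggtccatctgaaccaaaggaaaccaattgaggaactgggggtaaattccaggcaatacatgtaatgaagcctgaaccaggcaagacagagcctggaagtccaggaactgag
Sdccag8 window, chr1:176816919-176817118: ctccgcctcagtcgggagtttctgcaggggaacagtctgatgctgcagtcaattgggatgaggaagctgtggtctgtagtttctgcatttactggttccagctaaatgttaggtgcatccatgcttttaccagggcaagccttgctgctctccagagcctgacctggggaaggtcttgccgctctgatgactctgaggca
Dars window, chr1:128463643-128463842: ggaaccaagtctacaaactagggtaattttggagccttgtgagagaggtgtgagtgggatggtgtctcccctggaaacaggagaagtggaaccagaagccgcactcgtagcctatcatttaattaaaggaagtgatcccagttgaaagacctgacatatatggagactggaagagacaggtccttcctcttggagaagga
Gbx2 window, chr1:89902241-89902440: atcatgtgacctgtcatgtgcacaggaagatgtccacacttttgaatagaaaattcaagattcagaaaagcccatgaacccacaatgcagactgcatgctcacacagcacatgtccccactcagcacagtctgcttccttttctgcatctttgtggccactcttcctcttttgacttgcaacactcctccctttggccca
Stt3b window, chr9:115310684-115310883: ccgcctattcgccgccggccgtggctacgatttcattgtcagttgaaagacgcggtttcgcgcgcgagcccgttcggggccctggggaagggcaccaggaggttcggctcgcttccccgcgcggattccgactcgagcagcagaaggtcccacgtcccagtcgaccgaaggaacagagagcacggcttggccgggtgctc
The *Mroh2b* and *Rnf19b* windows each hold 1 STAT6 palindrome, and the *Sdccag8* and *Dars* windows hold none of the 4 motifs. The window near *Gbx2* holds none of them either, and that of the *Stt3b* promoter is CpG-rich, with 26 CpG dinucleotides and a GC content of 66.5%. Of the 12 named higher regions 7 held a STAT6 palindrome (those near *Aqp3*, *Casp6*, *Ifngr1*, *Mroh2b*, *Ppp2r3a*, *Rnf19b*, and *St8sia1*), and of the 12 named lower regions none did.

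Among the 12 named lower regions, 5 had no peak in either IL-4 sample. The region 28836 bp from *Gbx2*, a homeobox gene (chr1:89902070-89902646, intergenic), had scores of 24.7 and 20.3 without IL-4 and 4.24 and 5.42 with IL-4. Its log2 change was -1.90 ± 0.34 (SE, from the fit of all tested regions). The promoter of *Slc35b1*, a nucleotide sugar transporter family gene (at -7 bp), had scores of 21.9 and 13.4 against 3.29 and 3.57. These were the 2 regions that passed the adjustment among regions with a peak in every sample (adjusted p = 0.0354 and 0.0453, limma). The promoters of *Stt3b*, a catalytic subunit of the oligosaccharyltransferase, and *Fam118b* had untreated scores of 16.3 and 16.7 and of 13.6 and 14.6, and no peak after IL-4. An intron of *Deptor*, an inhibitor of mTOR, had scores of 25 and 25.3 against 8.48 and 8.24, and an intron of *Emb*, which encodes the adhesion protein embigin, 23.4 and 24.6 against 8.39 and 5.95. Promoters made up 3 of the 12 lower and none of the 12 higher regions.

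**Figure D2:**
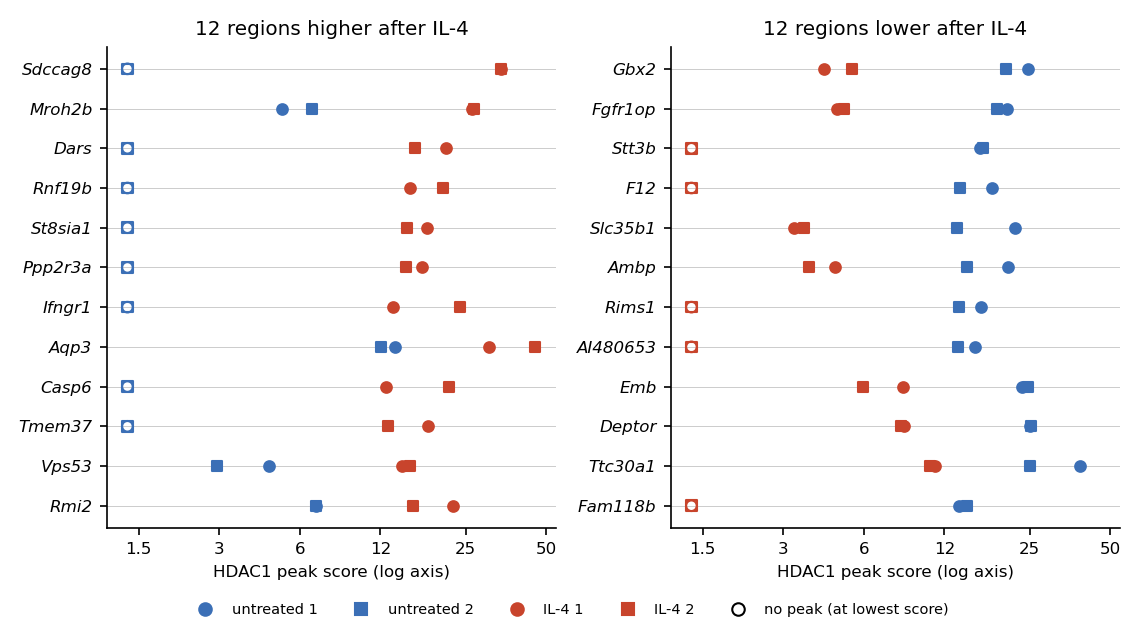
HDAC1 peak scores (x axis, log scale) of the 12 named regions per direction (rows, by nearest gene, smallest p at the top) in the 2 untreated (blue) and 2 IL-4 (red) samples, with circles for replicate 1, squares for replicate 2, and open symbols for a missing peak drawn at the lowest score. In each of the 24 rows both red symbols lie on one side of both blue symbols.

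Regions of higher HDAC1 were more distal than HDAC1 regions at large. Promoters made up 10.7% of the 1274 higher regions, 14.3% of the 2321 lower regions, and 17.8% of all regions tested. Intergenic DNA made up 39.6% of the higher, 34.5% of the lower, and 31.3% of all regions. Of regions within 1 kb of a TSS 2.68% were higher, of those 1 to 10 kb away 4.82%, of those 10 to 100 kb away 5.66%, and of those over 100 kb away 6.43%. The lower share was 6.81%, 8.79%, 9.19%, and 10.3% in the same bins, so that calls in both directions became more frequent with distance. CpG islands held 1.73% of the higher regions and 4.48% of all regions. The share of promoters among regions of higher HDAC1 was also low where a peak was present in every sample, at 12.5% of 568 regions against 20.4% of all 13447. No difference in the mean change was detectable between promoters and intronic or intergenic regions. The mean centered log2 score at promoters exceeded that at intronic and intergenic regions by 0.13 and 0.23 without IL-4 and by 0.14 and 0.22 with IL-4 (exact permutation p = 1), and the small difference between treatments changed sign under several settings.

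The higher regions were rich in STAT6 palindromes. A STAT6 palindrome lay in the 200-base window of 414 of the 1274 higher regions (32.5%), in 72 of the 2321 lower regions (3.1%), and in 2012 of all 27380 regions on assembled chromosomes (7.35%). In regions with a peak in every sample, the share was 21.3% of 568 higher regions, 1.97% of 457 lower regions, and 7.3% of all. At gained regions it was 35%, and at lost regions 3.21%. With lists cut to equal length, where gains and losses were as frequent as each other, it was 27.3% and 2.89%. The related STAT palindrome with the shorter spacer (TTCNNNGAA) was found in 14.7% of the higher, 4.91% of the lower, and 7.33% of all regions. The PU.1 motif was found in 11.6% of the higher, 11.7% of the lower, and 11.4% of all regions, and the C/EBP motif in 11.3%, 13.3%, and 12.7%. The RUNX motif was found in 18.1%, 16.1%, and 15.5%, and the IRF motif in 5.97%, 3.49%, and 4.46%. The AP-1 motif was more frequent in lower regions, at 15.1%, than in higher regions, at 10.7%, or in all regions, at 12.4%, but with a peak in every sample these shares were 10.7%, 9.33%, and 11.6%. The Sp/KLF motif GGGCGG, typical of GC-rich promoters, was found in 7.93% of the higher and 12.3% of all regions, and the median GC content was 47% and 49.5%.

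Regions with the palindrome also had more higher and fewer lower calls than those without it. Of the 2012 regions with a STAT6 palindrome 20.6% were higher and 3.58% were lower, and of the 25368 regions without one 3.39% were higher and 8.87% were lower. Where a peak was present in every sample, 12.3% of 982 regions with the palindrome were higher and 0.916% were lower, against 3.59% and 3.59% of 12463 regions without it. The mean centered log2 score of regions with the palindrome differed from that of the others by -0.387 and -0.365 in the untreated samples and by 0.395 and 0.388 in the IL-4 samples. The samples did not overlap, and the difference between treatments was 0.77 log2 units (exact permutation p = 0.333, the smallest that 4 samples allow). The size depended on missing peaks, since the median changes with and without the palindrome were 0.42 and -0.13 in all tested regions, 0.24 and -0.01 with a peak in every sample, and 0.32 and 0.18 with the floor 4 times as high. The share of regions with the palindrome was followed over 10 bins of 2738 regions ordered by HDAC1 change. It was 2.92% in the most negative bin, 5.84% in the sixth, 11.5% in the ninth, and 22.7% in the most positive. In the higher regions the palindrome lay near the center of the peak. It was found in 5.5% of them 21 to 40 bases before the center and in 1.02% of them 161 to 180 bases before it, while in all regions these shares were 0.88% and 0.614%.

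**Figure D3:**
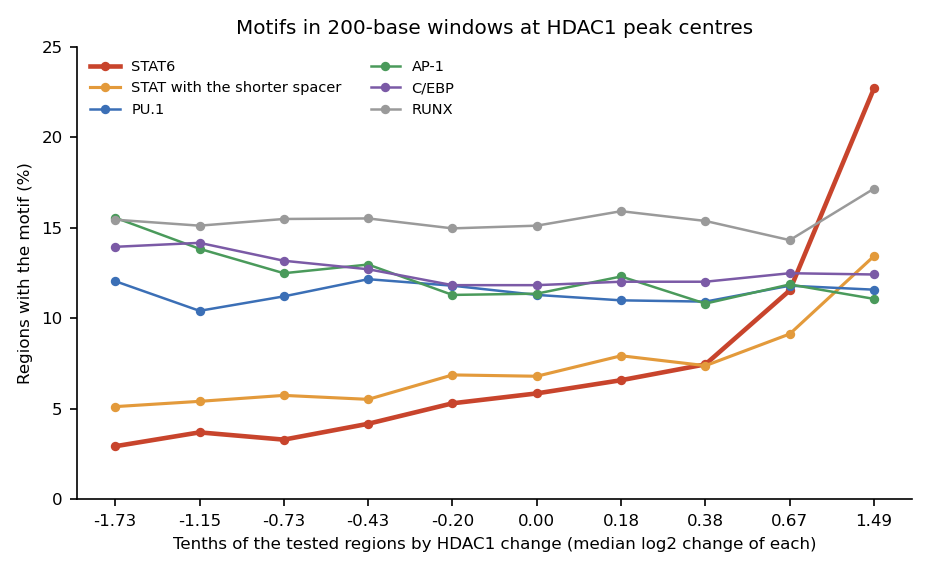
Percent of regions with each motif in the 200-base window (y axis) over 10 equal bins of the 27380 regions ordered by their HDAC1 log2 change (x axis, median change of each bin). The STAT6 line climbs from 2.92% to 22.7%, while the PU.1, AP-1, C/EBP, and RUNX lines stay between 10.4% and 17.2%.

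The other antibodies of the 1 hr experiment were read over the same regions. Their libraries were not used to choose the regions, although the sources do not say whether the cultures were shared. At the 1274 regions with higher HDAC1, the mean of each of the 6 was higher in both IL-4 samples than in both untreated samples. HDAC2 had a peak at 950 of these regions, and its mean centered log2 score was 1.88 and 1.86 without IL-4 and 3.06 and 2.98 with IL-4. HDAC3, the catalytic subunit of the NCoR complex, had a peak at 605 of them, with means of 1.8 and 1.85 against 3.41 and 3.35. The labels give the HDAC3 libraries the antibody code that they also give for H3K27Ac. The ChIP methods of the study repeat that code for HDAC3, while its list of reagents gives HDAC3 a code of its own. The acetyltransferase p300 had a peak at 1230 of them, or 96.5%, with means of 4.2 and 4.27 against 5.93 and 5.91. The groups were separate for each of the 3 cofactors. Over all regions tested they were separate too for HDAC3 (2.88 and 2.7 against 3.03 and 2.97) and p300 (4.93 and 4.92 against 5.09 and 5.09). The mean changes there were 0.216 and 0.164, against 1.55 and 1.68 at the higher regions. PU.1, the lineage-determining factor of macrophages, gave means of 3.47 and 3.45 against 4.51 and 4.59. H3K27Ac gave 5.25 and 5.25 against 6.24 and 6.23, and initiating polymerase (RNAPII-pS5) 2.75 and 2.88 against 3.89 and 3.81. The median changes were 1.10 for HDAC2, 1.73 for HDAC3, 1.26 for p300, 0.80 for PU.1, 0.69 for H3K27Ac, and 0.71 for RNAPII-pS5 on the log2 scale. Over all regions tested these medians lay between -0.04 and 0.07.

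At the 2321 regions with lower HDAC1 the other antibodies had lower means by smaller amounts. The median change was -0.26 for HDAC2, -0.31 for HDAC3, -0.32 for p300, -0.22 for PU.1, -0.23 for H3K27Ac, and -0.16 for RNAPII-pS5. The mean centered log2 score of p300 was 4.91 and 4.95 against 4.71 and 4.71, and that of H3K27Ac 6.14 and 6.13 against 5.85 and 5.87. In regions with a peak in every HDAC1 sample, the median changes at higher regions were 0.36 for HDAC2, 0.81 for HDAC3, 0.50 for p300, 0.29 for PU.1, and 0.23 for H3K27Ac, and at lower regions between -0.24 and -0.16 for the 6 antibodies. For each antibody the 2 untreated and the 2 IL-4 means were separate at higher and at lower regions (exact permutation p = 0.333 each). Over all regions tested they were also separate for HDAC3, p300, H3K27Ac, and RNAPII-pS5, with RNAPII-pS5 lower after IL-4. Separation alone thus does not set the called regions apart. Untreated replicate 1 of p300 stood apart by its short list, and without it the median p300 change was 1.14 at higher and -0.36 at lower regions. Across all regions the HDAC1 change correlated with the change of p300 at Spearman's rho = 0.296 (26096 regions), of HDAC3 at 0.297 (10724), of HDAC2 at 0.232 (19872), and of RNAPII-pS5 at 0.194 (21689), a description over regions that share the same libraries.

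**Figure D4:**
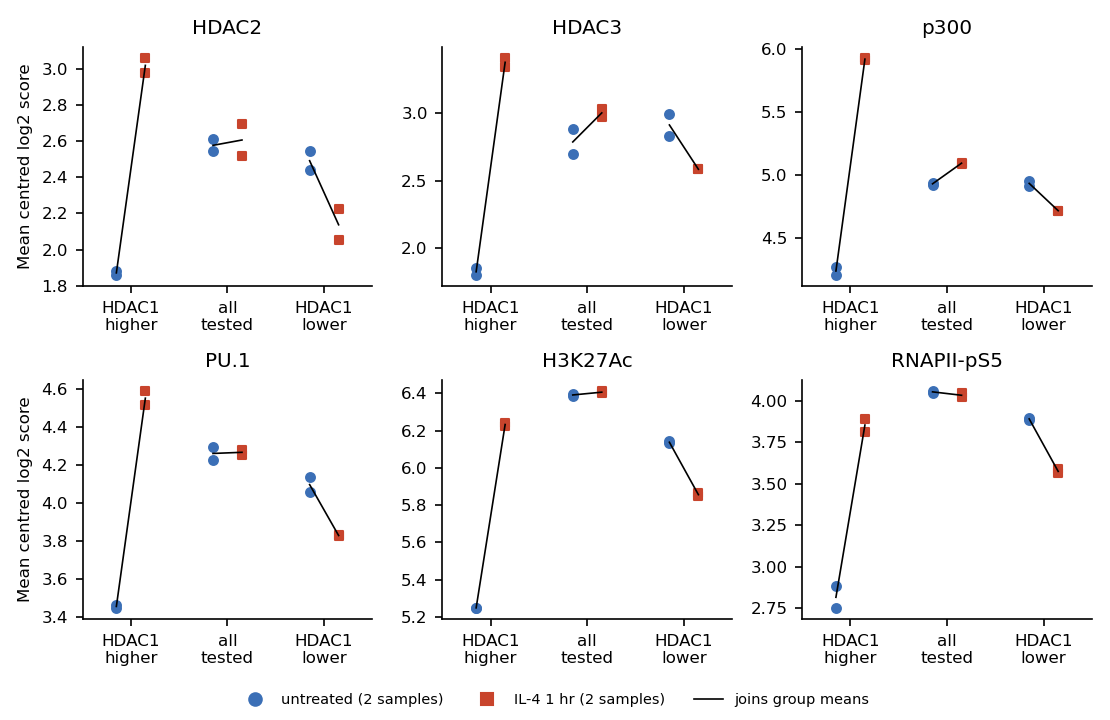
Mean centered log2 score (y axis, with its own range in each panel) of 6 other antibodies over HDAC1 regions that were higher, all tested, and lower after IL-4, with 1 point per sample. In every panel the IL-4 points (red) lie above the untreated points (blue) at HDAC1-higher regions and below them at HDAC1-lower regions.

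The 12 named higher regions followed the group one by one. HDAC2, HDAC3, p300, PU.1, and RNAPII-pS5 were higher after IL-4 at 12 of 12, and H3K27Ac at 7 of the 7 that had a region in it. The share of all regions in each direction by this rule is not given, and the median changes over all regions lay between -0.04 and 0.07. A stricter rule asks for both IL-4 scores on one side of both untreated scores. By that rule, of all tested regions with a peak of the antibody, 19.7% (PU.1) to 36.2% (H3K27Ac) were higher. Likewise 18% (HDAC3) to 40.8% (H3K27Ac) were lower. At the *Mroh2b* region the p300 scores were 48.1 and 139.2 without IL-4 and 327.8 and 305.1 with IL-4, and the H3K27Ac signal was 73.4 and 74.7 against 265.2 and 252. At the *Sdccag8* region HDAC2 had scores of 4.58 and 6.17 against 45.1 and 37.7 and p300 had 11.2 and 30.6 against 203 and 197, while no H3K27Ac region was listed there in any sample. At the named lower regions HDAC3 was lower at 7 of 8 with a region, H3K27Ac at 8 of 11, PU.1 at 6 of 8, p300 at 7 of 12, HDAC2 at 5 of 9, and RNAPII-pS5 at 4 of 12, and at the *Fam118b* promoter the p300 log2 difference was 1.49, in the opposite direction.

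Whether HDAC1 changed differently from the other cofactors was tested region by region with an interaction term. No region passed an adjusted p of 0.05 against HDAC2 (0% of 19872), HDAC3 (0% of 10724), or p300 (0% of 26096). At an unadjusted p of at most 0.05 the HDAC1 change was above that of HDAC2 at 391 and below it at 694 regions. It was above that of HDAC3 at 244 and below it at 579, and above that of p300 at 683 and below it at 2252. In both directions together these were 5.46% of regions for HDAC2, 7.67% for HDAC3, and 11.25% for p300. The HDAC2 share was near what an unadjusted p of 0.05 gives without any difference. Such counts do not show that the cofactors changed alike. With a floor 4 times as high 1135 regions differed between HDAC1 and p300 at an adjusted p of at most 0.05.

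The study sorted IL-4-responsive genes by RNA-seq into the induced clusters A to D and the repressed cluster E, and these lists were set against the HDAC1 regions by nearest gene. Cluster A, the smallest induced cluster, had 83 regions near 29 of its 32 genes, of which 16 (19.3%) were higher and 2 (2.41%) were lower, with a median log2 change of 0.42 against -0.10 over all regions. Cluster B had 507 regions, with 63 (12.4%) higher and 34 (6.71%) lower. Cluster C had 994 regions, with 88 (8.85%) higher and 84 (8.45%) lower. Cluster D had 950 regions, with 43 (4.53%) higher and 86 (9.05%) lower, and the repressed cluster E had 2044 regions, with 75 (3.67%) higher and 193 (9.44%) lower. Clusters D and E were thus close to the background of 4.65% higher and 8.48% lower. The mean centered log2 score of regions near genes of clusters A to C was below that of cluster E regions without IL-4 (-0.19 and -0.14) and above it with IL-4 (0.15 and 0.15), a difference of 0.32 between treatments with no overlap of the groups (exact permutation p = 0.333). It was 0.0672 with a peak in every sample, 0.0809 with the floor 4 times as high, and 0.114 with scores of at least 5, so its size depended on how missing peaks were treated. Where a peak was present in every sample, the median change was -0.01 at cluster E and 0.16 at cluster A. Of 993 such cluster E regions 45 (4.53%) were higher and 44 (4.43%) lower, against 4.22% and 3.4% of all such regions.

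**Figure D5:**
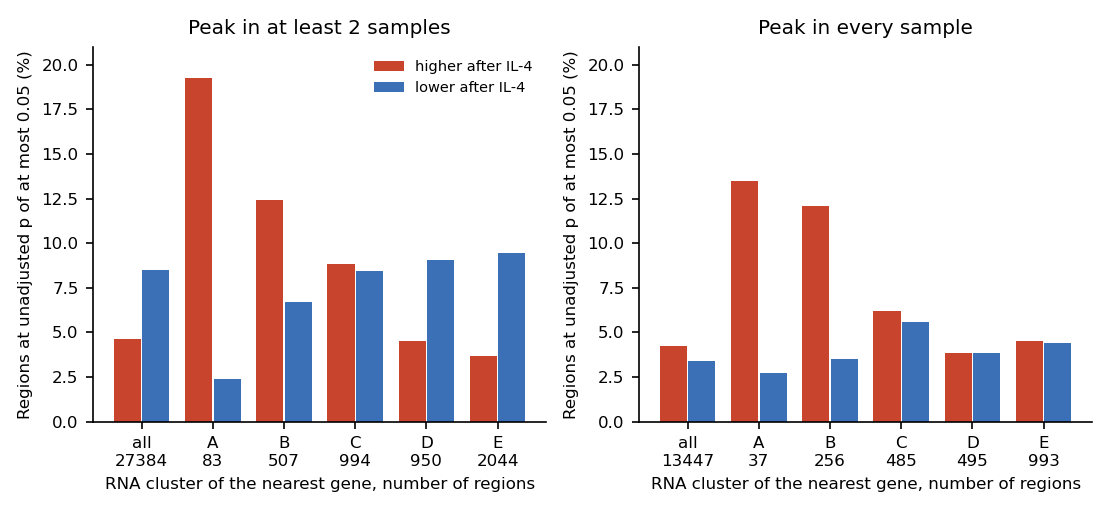
Percent of HDAC1 regions that were higher (red) or lower (blue) after IL-4 at an unadjusted limma p of at most 0.05 (y axis), for all regions and for regions whose nearest gene is in RNA cluster A to E (x axis, with the number of regions). Clusters A and B exceed the background share of higher regions in both panels, and cluster E has 3.67% higher and 9.44% lower regions on the left and 4.53% and 4.43% on the right.

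*Socs1*, which encodes a feedback inhibitor of JAK kinases and belongs to cluster A, was the nearest gene of 11 regions, of which 4 were higher and 1 was lower. At 83029 bp from its TSS the scores were 6.4 and 6.27 after IL-4 with no untreated peak, and at 40015 bp they were 4.73 and 11.6 with no untreated peak. At 95612 bp HDAC1 was present before IL-4, with scores of 5.24 and 3.14 against 10.9 and 7.94. The strongest *Socs1* region, at 90362 bp, was not called, with scores of 10.7 and 10.3 against 10.7 and 7.57, while the p300 log2 difference there was 3.37. Nearby, the region at 3604 bp from *Rmi2* had scores of 30 and 32.1 against 13.1 and 11.6, the opposite of the region at 9246 bp, so that one locus held regions of both directions. Other cluster A genes with a region bound only after IL-4 included *Slc7a2*, a cationic amino acid transporter gene (at -11234 bp, scores of 7.68 and 5.3), *Pdcd1lg2*, which encodes PD-L2 (31765 bp, 4.94 and 6.21), *Hebp2* (promoter, 9.35 and 7.31), *Snn* (4.9 and 5.44), and *Mgl2*, a C-type lectin gene (9.6 and 3.3). Each of these 5 regions held a STAT6 palindrome, but they are picked examples, and cluster A had 16 higher regions at 13 genes. The share with a palindrome over all higher regions of cluster A is not given, so these 5 give no rate for the cluster. Among cluster B genes, *Ahr*, which encodes the aryl hydrocarbon receptor, had scores of 3.91 and no peak against 13.5 and 14.4 at -39020 bp, and *Pim3*, a serine/threonine kinase gene, 3.24 and no peak against 12.5 and 9.89 at -6538 bp. In cluster E, lower regions lay near *Klf10* (55.2 and 42.5 against 21.4 and 17.2), *Lpin2* (18.2 and 14.7 against 5.05 and 5.56), *Il10ra*, the IL-10 receptor gene (21.6 and 17.2 against 8.15 and 5.94), and at the promoter of the inflammasome sensor gene *Nlrp1b* (32 and 23.3 against 12.7 and 8.99). At the *Nlrp1b* promoter the p300 log2 difference was 0.08 and at *Il10ra* it was -0.06. Cluster E also held higher regions, among them the *Ifngr1* region above and one at -22245 bp of *Ndrg1* (11 and 8.9 against 21.1 and 22.4).

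Gene lists of macrophage biology showed where these changes fell by function. The list of IL-4 and STAT6 response genes had 135 regions at 27 of its 30 genes, of which 18 (13.3%) were higher, at 14 genes, and 7 (5.19%) were lower, at 5 genes, against 4.65% and 8.48% of all regions. With a peak in every sample these shares were 9.09% and 6.49% of 77 regions, against 4.22% and 3.4%. *Mrc1*, the mannose receptor gene and a marker of alternative activation, had IL-4 scores of 14.2 and 6.02 at -24836 bp with no untreated peak, while its promoter region had 14 and 7.33 against 3.91 and 4.99, which did not pass the test. *Irf4*, a transcription factor of alternative activation, had scores of 3.51 and 6.39 against 9.74 and 17 at -34308 bp. *Cdh1*, which encodes E-cadherin, had 7.12 and no peak against 10.7 and 17.5, and *Mmp12*, the macrophage elastase gene, 4.47 and 5.73 after IL-4 only. The promoter of the chemokine gene *Ccl7* had no peak and 7.27 against 14.4 and 12.4. The strongest regions of the alternative activation genes *Arg1* (18.3 and 11 against 14.2 and 17.3) and *Retnla* (8.88 and 17.5 against 10.9 and 14.4) overlapped between the groups. *Klf4*, a transcription factor that acts with STAT6, had regions of both directions, with IL-4 scores of 8.44 and 5.83 and no untreated peak at -269254 bp, and 15 and 17.2 against 5.61 and 3.85 at -91106 bp. *Egr2* and *Tgm2* each had a lower region, with scores of 15 and 12.8 against 4.14 and 5.46 and of 21.1 and 20 against 10.9 and 7.22. *Egr2* also had a higher region, with a log2 change of 2.17 that was 0.442 with the floor 4 times as high.

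The list of inflammatory and LPS response genes had 130 regions, with 13 (10%) higher and 12 (9.23%) lower. Of all regions 4.65% were higher and 8.48% were lower, so the higher share stood above its background and the lower share near it. With a peak in every sample these shares were 6.15% and 4.62% of 65 regions, against 4.22% and 3.4% of all such regions. The region at -6444 bp of the chemokine gene *Ccl3* had the smallest p of the listed genes, with scores of 8.17 and 10.3 against 22.5 and 20.7 and a STAT6 palindrome. The promoter of *Tnfaip3*, which encodes the NF-kB inhibitor A20, had 5.56 and 6.9 after IL-4 only. Of the 12 *Tnfaip3* regions 2 were higher and 1 was lower. *Nfkb1*, the p105/p50 subunit gene of NF-kB, had IL-4 scores of 5.3 and 5.99 only, and *Rel* had 7.19 and 4.75 only at -50160 bp. *Il10*, an anti-inflammatory cytokine gene, had 7.85 and 3.85 against 14.8 and 8.19. In the other direction, *Nfkbia*, the IkBα gene, had scores of 17.1 and 15 against 7.17 and 6.98, and the intronic region at 176 bp of *Fcgr1*, the high-affinity Fc receptor gene, 25.1 and 13.8 against 8.55 and 7.93. The strongest regions of *Tlr2*, *Nlrp3*, *Clec4d*, *Il1b*, and *Irak3* were not called in either direction. At *Tlr2*, a receptor for bacterial lipoproteins, the scores were 14.9 and 12.4 against 8.72 and 5.83, and at *Il1b* 14.9 and 10.9 against 5.45 and 10.1. At *Clec4d* they were 8.56 and 7.68 against 8.91 and 5.87. The deposited scores of the groups did not overlap at *Tlr2* and *Il1b* and overlapped at *Clec4d*, and after centering those of *Il1b* overlapped too. *Tlr2*, *Nlrp3*, and *Il1b* each had another, weaker region among the lower calls, bound in the untreated samples only.

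The list of immediate early and AP-1 factors had 66 regions, with 5 (7.58%) higher and 7 (10.6%) lower, against 4.65% and 8.48% of all regions. *Fosb* had a lower region at -6567 bp, with scores of 28.4 and 19.7 against 9.19 and 11, and the *Junb* promoter had 8.95 and 5.33 with no IL-4 peak. *Batf* had a higher region with no peak and 3.26 against 10.1 and 8.95, and *Atf3* one with 5.95 and 5.02 after IL-4 only. The strongest *Fos* region, with scores of 10.2 and 19.1 against 20.7 and 26.4, was not called, although both IL-4 scores lay above both untreated scores. The macrophage lineage list had 134 regions, with 13 (9.7%) higher and 7 (5.22%) lower, against 4.65% and 8.48% of all regions. With a peak in every sample 5.56% of 72 regions were higher, near the 4.22% of all. *Irf8*, a lineage factor gene, had IL-4 scores of 7.04 and 5.22 only at -20941 bp, the promoter of *Cd68*, a macrophage lysosomal glycoprotein gene, had 8.24 and 6.23 only, and *Cebpa*, which encodes C/EBPα, had 8.66 and 2.97 against 9.4 and 16.2. The promoter of *Tfec*, a transcription factor gene of the MiT family that is expressed in macrophages, had 4.56 and 6.27 against 9.75 and 9.4 and held a STAT6 palindrome. Of the 7 *Tfec* regions 2 were higher and 1 was lower. The strongest *Itgam* region, at the gene of the integrin CD11b, had 18.6 and 16.7 against 21 and 15.7 and overlapped between the groups.

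The list of Sin3, NuRD, CoREST, and MiDAC subunits had 38 regions at 20 of its 26 genes, with 2 (5.26%) higher and 1 (2.63%) lower against 4.65% and 8.48% of all regions. With a peak in every sample, 3 of 17 were higher and 0 lower in limma at the unadjusted p, against 4.22% and 3.4% of all such regions. With 17 regions, 0 lower is no departure from that share. The promoter of *Ing1*, a Sin3 subunit gene, had scores of 6.5 and 4.7 against 10.1 and 11.8, and the promoter region of *Hdac1* itself had 3.93 and 9.17 against 6.06 and 6.64. The list of HDAC3 complex subunits and acetyltransferases had 56 regions, with 3 (5.36%) higher and 6 (10.7%) lower. The list of lipid-sensing receptors and cholesterol efflux had 38 regions, with 1 higher (2.63%) and 3 lower (7.89%), and the strongest region of the cholesterol transporter gene *Abca1*, at -27494 bp, had scores of 36.9 and 26.2 against 11.5 and 15.7. The interferon response list had 34 regions, with 1 higher and 1 lower (2.94% each).

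The strongest HDAC1 peaks were not at macrophage genes. Of the 10 regions with the highest mean score, 7 lay on telomere-type simple repeats annotated as (TTAGGG)n, 1 on a major satellite repeat, and 2 at the promoters of *Adh5* and *Pou2f1*. The region with the highest single score, near *Mrgprd*, had scores of 124.1 and 78.2 without IL-4 and 76 and 59.1 with IL-4. At the *Adh5* promoter, which belongs to the gene of an alcohol and formaldehyde dehydrogenase, the scores were 94.9 and 84 against 58.9 and 67.8. All 10 had unadjusted p-values above 0.05. Over the 65 tested regions with the telomere-type repeat the median log2 change was -0.33, with 0 higher and 8 lower (12.3%), and such repeats are copies that reads cannot be placed among with certainty.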

How the data were processed

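HDAC1 ChIP-seq peak lists of 4 samples (2 untreated, 2 IL-4 1 hr, grouped by their labels) were analysed, with those of 6 other antibodies from the same experiment. The authors cross-linked cells with disuccinimidyl glutarate and formaldehyde, aligned reads to mm10, called peaks per sample with MACS2 at a q-value of at most 0.01, left out blacklisted regions and used HOMER for annotation. The submitters' processing notes name BWA 0.7.10, SAMtools 0.1.19, HOMER 4.2, and MACS2 2.0.10. The deposited peak score was taken, from its values, as a −log10 p- or q-value, which of the 2 is not given in the sources used here. The deposited H3K27Ac value is a HOMER signal (normalized tags). The library kit per sample and an input control are not given in the sources used here. Depth is unknown, so no counting interval can be given and the study's comparison of reads was replaced by scores.

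Peaks overlapping by at least 1 bp were merged, missing peaks set to 1.36, log2 scores centered on regions with a peak in every sample, and regions with a peak in at least 2 samples tested with limma 3.58.1 (R 4.3.3, eBayes with trend, Benjamini-Hochberg). Motifs were searched on both strands of RefSeq GRCm38. Sample means were compared with two-sided exact permutation tests (SciPy 1.17.1, NumPy 2.4.6, pandas 2.3.3, Python 3.11.15). The fits were tested on simulated data. Named were, in each direction, the 12 regions with the smallest p and a log2 change of at least 1, without predicted genes and chromosome 18, then regions of listed genes, the 10 highest scores and genes the study names. Members and lists were chosen with earlier results of these data known. Results for some items are not reported here. Over regions with a peak in every sample, the scores of same-numbered samples did not deviate together (r = 0.000124), so numbers were not used as pairs. Some position measures did follow the number. Peaks within 1 kb of a TSS made up 30.29% and 32.24% in untreated replicates 1 and 2, and 30.95% and 32.37% in IL-4 replicates 1 and 2. The permutation tests did not take this into account.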

Additional observations from a re-analysis of the deposited data

How the results depend on the processing

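With 2 samples a group and no read counts, an adjusted call could rest on how a missing peak is valued. In the main fit 0 regions were higher and 0 lower at an adjusted p of at most 0.05 (limma), with 1274 and 2321 at the unadjusted p. At the adjusted p, higher regions numbered 11 with a peak in every sample, 1 with a peak in at least 1 sample, 15 with a floor 4 times as high, and 13 with scores of at least 5, and 0 to 47 when 1 sample was left out (47 without untreated replicate 1 and 32 without untreated replicate 2). Lower regions numbered 2 with a peak in every sample, 5 with the higher floor, and 0 to 2 when 1 sample was left out, where the lone sample is assumed to vary like the other group. At the unadjusted p, higher regions numbered 568 with a peak in every sample, 1959 with the higher floor, and 533 to 789 without 1 sample. Lower regions numbered 3881 without centering, 1328 under quantile normalization, 457 with a peak in every sample, 1303 with a peak in at least 1 sample, 372 with the higher floor, 417 with scores of at least 5, and 323 to 2281 without 1 sample (362 and 323 without untreated replicates 1 and 2). With the replicate number as a block 1202 regions were higher and 2927 lower, and 0 passed the adjustment. Under the block 3 named regions no longer passed the unadjusted p, and of the 1274 higher and 2321 lower regions 1159 and 2198 still did. Region scores did not pair by replicate number, although some position shares followed it.

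Gained and lost regions numbered 1428 and 1421 with lists of equal length, and 1312 to 2787 and 5000 to 8030 when 1 sample was left out, since fewer samples then had to hold or lack the peak. The promoter minus distal change (0.000746) was -0.019 under quantile normalization, -0.0244 with a peak in every sample, -0.00508 with a peak in at least 1 sample, -0.0298 with the higher floor, -0.0239 with scores of at least 5, -0.0399 with equal lists, -0.000349 with summed scores, and -0.107 to 0.0902 without 1 sample. The promoter share difference was 0.0582 percentage points with equal lists and 0.456 with scores of at least 5 (main 0.843). The intron share difference was 0.114 percentage points with equal lists (main -0.532). The intergenic one was 0.202 with scores of at least 5 (main -0.306) and -0.637 to 0.025 without 1 sample, positive without untreated replicate 1. The CpG island one was -0.528 to 0.00188 without 1 sample (main -0.263), positive without untreated replicate 2. The causes were not tested. Regions at which HDAC1 differed from HDAC2, HDAC3, and p300 at the adjusted p numbered 1, 4, and 11 with a peak in every sample. For p300 they numbered 7 without centering, 1135 with the higher floor, and 0 without p300 untreated replicate 1, an alternative chosen after seeing the data. The STAT6 palindrome share, also recomputed after seeing the data, was 21.3% to 35.6% of higher and 1.97% to 3.72% of lower regions over 16 settings with the 200-base window. In a 400-base window it was 41.5% of higher, 6.59% of lower, and 12.7% of all regions. Of 1295 values recomputed for 97 named regions, 1134 kept direction and side of the threshold, 161 kept only direction, and 0 reversed.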

Other observations

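Some genes were the nearest gene of several called HDAC1 regions. Of all 27384 regions tested, 4.65% were called higher and 8.48% lower, and how many such genes these shares alone would give was not computed. Of 11980 genes with a tested region, 20 had at least 3 higher and 41 at least 3 lower regions at an unadjusted limma p of at most 0.05. *Klhl25* had 4 higher and 0 lower of 12 regions, and *Tns3* 4 higher and 1 lower of 22. *Sspn* and *Usp6nl* had 0 higher and 5 lower of 10 regions each, and *Sgms1*, a sphingomyelin synthase gene, 0 higher and 5 lower of 22. *Nuak1*, a kinase gene, had both, 3 higher and 2 lower of 13. These genes were chosen after their values were seen, and genes with more regions had more chances to be listed.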
